A study of Mus musculus with 4 samples.

Results

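The genes of vascular smooth muscle cells and pericytes were examined in Sca-1 cells of failing and normal mouse hearts. The 38 genes were chosen by symbol from those known for these cells, 30 of them contractile and other smooth muscle genes and 8 pericyte genes (Rgs5, Abcc9, Kcnj8, Higd1b, Ndufa4l2, Vtn, Cspg4 and Steap4), out of 18193 genes with a symbol on the array. The choice used no measured value, although earlier results of these arrays were known when it was made. All 38 genes had at least 1 probe set and 73 together, and every probe set that carried one of these symbols alone was read.

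Sca-1 is a surface protein by which resident progenitor cells of the heart are enriched, and the cells were taken from FVB mice aged 6 weeks by magnetic sorting. Cyc cells came from double-transgenic animals with heart failure that overexpress CyclinT1 and Gαq, and Wt cells from their wildtype littermates. Both transgenes are under the αMHC promoter, which drives expression in cardiomyocytes. Affymetrix mouse genome arrays measured 4 pools, 2 of each genotype, with RNA from 2 to 3 hearts in each pool, and the 1 Cyc and 1 Wt pool that share a replicate number are called experiment 1 and experiment 2.

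Pericytes and smooth muscle cells are the mural cells of blood vessels. Smooth muscle cells wrap arteries and arterioles and contract when calcium activates myosin light chain kinase, and serum response factor with its partner myocardin drives their contractile genes through a DNA element named the CArG box. Pericytes lie on capillaries within the basement membrane, are recruited by platelet-derived growth factor from the endothelium, and in the heart are known for an ATP-sensitive potassium channel formed by the products of Kcnj8 and Abcc9.

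Values are deposited intensities on a linear scale, and one below 50 is called near background. Differences are in log2 of the intensity with 16 added, Cyc minus Wt, with the standard error or the 95% confidence interval of limma. This moderated linear model combines a gene's own spread with one shared over all tested probe sets. A gene is represented by its brightest tested probe set. It is called changed where the difference is 2-fold or more with a p below 0.05 before adjustment, which are the thresholds of the study. The study took its p from the error model of Rosetta Resolver and the p here is from limma, so the tests differ. Probe sets entered the test with 50 or more in at least 2 pools, which left 31 of the 38 genes (24 smooth muscle and 7 pericyte genes) among 10315 genes tested. No gene called here holds after correction over all tested probe sets, as every adjusted p of the unblocked comparison was 1.

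Control transcripts added before labelling had a median intensity of 258.8 in the Cyc and 231.9 in the Wt pool of experiment 1. In both pools of experiment 2 it lay at or below 0.303. The controls thus separate the arrays by replicate number, but the labels do not tie these numbers to the independent experiments. The median over tested probe sets was 197.6 in Cyc and 219.4 in Wt cells of experiment 1 and 280.5 and 260.7 in experiment 2. The Cyc pool of experiment 2 held markers of other cell types at levels not reached in the other pools, and these are given beside the contractile genes.

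At their brightest probe sets the tested pericyte genes were brighter in Cyc than in Wt cells of both experiments, and those of the potassium channel passed the thresholds. Abcc9 and Kcnj8 were called higher, 2 of the 7 pericyte genes tested, against 0.921% of all tested genes. None was called lower, against 0.126% of all genes. All 7 had a higher intensity in the Cyc than in the Wt pool of both experiments, against 30.8% of all genes. This holds for the brightest probe sets, as 3 of the 4 tested for Rgs5 and 1 of the 2 for Cspg4 were lower in Cyc cells of experiment 1. In 5 of them (Abcc9, Kcnj8, Higd1b, Vtn and Steap4) each Cyc pool exceeded both Wt pools, against 18.5%. The median log2 difference of the 7 genes was 0.46, with 0.33 in experiment 1 and 0.85 in experiment 2, whereas the medians over all tested genes were 0.02, -0.04 and 0.07. These are pools of sorted cells, in which more cells of a type and more RNA per cell cannot be told apart.

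Kcnj8 encodes Kir6.1, the pore of the vascular ATP-sensitive potassium channel. Its intensity was 299.1 and 149.4 in the Cyc pools of experiments 1 and 2 and 112.2 and 65.1 in the Wt pools. The groups did not overlap, and both genotypes were brighter in experiment 1, as with Vtn, Kcna5 and Crip1. Of the 24 tested smooth muscle genes 21 in Cyc cells and 20 in Wt cells were brighter in experiment 2. So were 7767 of all 10315 tested genes in Cyc cells and 7180 in Wt cells. The Cyc pool was 2.67-fold higher in experiment 1 and 2.30-fold higher in experiment 2. The log2 difference was 1.16 ± 0.43 (SE, limma, interval 0.03 to 2.30, adjusted p = 1), and with the experiment as a block the SE was 0.20 (adjusted p = 0.588), the smallest adjusted p among the brightest probe sets of the 31 genes.

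Abcc9 encodes SUR2, the regulatory subunit that surrounds this pore. Its brightest probe set read 840.1 and 1165 in the Cyc pools and 464.1 and 507.5 in the Wt pools. Each Cyc pool stood above both Wt pools, 1.81-fold over its own Wt pool in experiment 1 and 2.29-fold in experiment 2. The mean over both experiments was 2.01-fold, with a log2 interval from 0.29 to 1.71 (limma, adjusted p = 1), and from 0.50 to 1.51 with the block (adjusted p = 0.648). All 3 tested probe sets of Abcc9 were higher in Cyc cells of both experiments. A second one, at 184.5 and 224.1 in Cyc and 86.4 and 90.3 in Wt cells, also passed the thresholds (log2 difference 1.07 ± 0.24). The third, with 75.5 and 199.7 in Cyc and 15.5 and 72.2 in Wt cells, missed the p threshold at 1.41 ± 0.67 and passed with the block (SE 0.20, adjusted p = 0.365). Abcc9 is among the genes that the study itself lists as changed on these arrays, so its call is not independent evidence of a direction.

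Kcnj8 and Abcc9 are neighbours on chromosome 6 in the RefSeq annotation of GRCm38.p6. Their promoters (250 bases before to 50 after the start in the RefSeq table of that build) both hold TGGGAA, the core of the site bound by RBPJ, through which Notch receptors act in mural cells. They are shown as the sequences of the pair of genes called higher, 5′ to 3′ on the gene's strand, with TGGGAA in capitals.
Kcnj8, chr6:142571595-142571654, minus strand: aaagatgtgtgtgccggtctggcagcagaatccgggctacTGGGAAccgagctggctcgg
Abcc9, chr6:142702465-142702520, minus strand: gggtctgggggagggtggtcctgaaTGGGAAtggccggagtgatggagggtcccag
The match begins at the start site in Kcnj8 and 221 bases before it in Abcc9. Read on both strands, TGGGAA was present in 4 of the 6 pericyte genes with a promoter in the table (also in Vtn and Steap4), in 8 of the 24 smooth muscle genes and in 28.3% of 27025 genes. In Abcc9 it shares 4 bases with GGAATG, the MCAT motif bound by TEAD factors. Such matches describe the letters alone.

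Higd1b, of a family of small mitochondrial proteins and widely used as a pericyte marker, reached 407.3 and 584.6 in the Cyc pools and 188.1 and 304.4 in the Wt pools. The lower Cyc pool was above the higher Wt pool. Its log2 difference of 0.98 ± 0.35 (limma, interval 0.07 to 1.89) met the p threshold and fell just short of 2-fold, with 2.17-fold in experiment 1 and 1.92-fold in experiment 2. With the block its SE was 0.19 (adjusted p = 0.648).

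**Figure D1:**
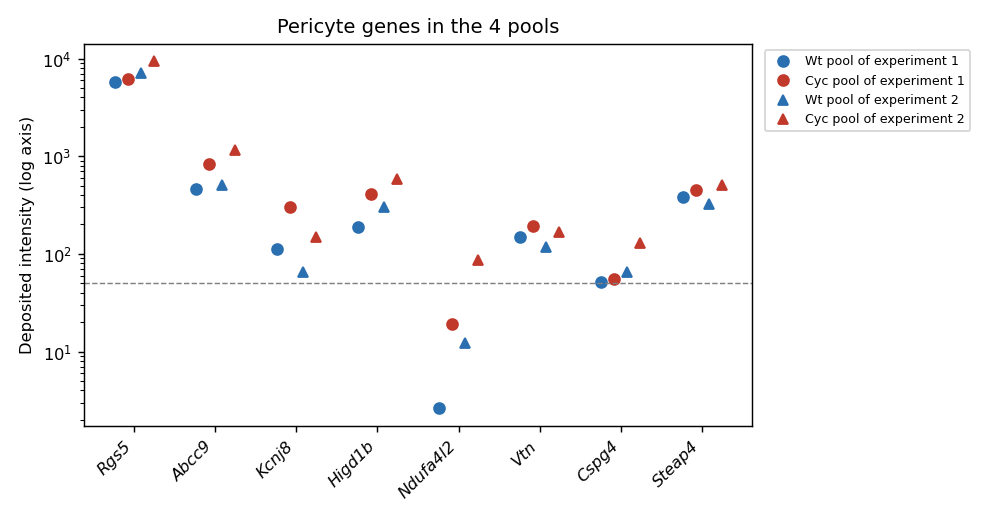
Deposited intensity (log axis) of the 8 pericyte genes in each of the 4 pools, with Wt in blue, Cyc in red, and the experiments as circles (1) and triangles (2). The dashed line marks 50. The red symbol lies above the blue symbol of the same shape in every gene.

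Vtn and Steap4 showed smaller differences. Vitronectin, a matrix glycoprotein, had 192.8 and 168.7 in Cyc and 150.4 and 117.1 in Wt pools, a log2 difference of 0.40 ± 0.25 (limma, interval -0.26 to 1.06). Steap4, a metalloreductase, had 455.7 and 505.3 in Cyc and 383.7 and 325.7 in Wt pools, a difference of 0.42 ± 0.24 (interval -0.20 to 1.05). In both genes the groups did not overlap, yet neither difference reached 2-fold in either experiment. Steap4 is also in the study's list of changed genes.

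Rgs5 and Cspg4, the remaining tested pericyte genes, overlapped between the genotypes. Rgs5, a GTPase activator that dampens Gq and Gi signaling, read 6110.4 and 9358 in Cyc and 5695 and 7177 in Wt pools. The difference of 0.24 had a 95% confidence interval from -0.59 to 1.07, so neither no change nor a doubling lay outside it. The other 3 tested probe sets of Rgs5 were lower in the Cyc than in the Wt pool of experiment 1 and higher in experiment 2. Cspg4, the NG2 proteoglycan, was close to 50 in 3 pools, at 54.7 in the Cyc and 51.3 in the Wt pool of experiment 1 and 64.9 in the Wt pool of experiment 2, against 129.6 in the Cyc pool of experiment 2. Its second tested probe set was lower in the Cyc than in the Wt pool of experiment 1.

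Ndufa4l2, a hypoxia-induced mitochondrial protein, was not tested. It had 19.0 and 85.5 in the Cyc and 2.61 and 12.1 in the Wt pools. Both Cyc pools were above both Wt pools, but only the Cyc pool of experiment 2 reached 50, so no fold is given.

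Most contractile genes were brighter in experiment 2 than in experiment 1, in Cyc and in Wt cells. Of the 13 genes of the contractile filament and its regulators, 11 were tested. None was called higher or lower, against 0.921% and 0.126% of all genes. With shares this low, the lack of a call among 11 genes says little about them. In none did both Cyc pools lie above both Wt pools, nor both below, which among all genes occurred in 18.5% and 7.48%. Their median log2 difference was 0.49, with 0.16 in experiment 1 and 0.70 in experiment 2. The median of the pericyte genes was likewise larger in experiment 2 (0.33 and 0.85). Of the 11 contractile genes 7 were higher in Cyc cells of both experiments, against 30.8% of all genes. With the experiment as a block 4 of them were higher at an unadjusted p under 0.05 (limma), against 4.68% of all genes. In 10 of the 11 both pools of experiment 2 were brighter than both pools of experiment 1, against 48.9% of all genes, with Cald1 as the exception. Hence the order of the pools followed the experiment before the genotype.

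Acta2, the smooth muscle α-actin of the thin filament, had 3770.2 in Cyc and 3098 in Wt cells of experiment 1 and 7668 and 4736 in those of experiment 2. Cyc exceeded Wt in each experiment, 1.22-fold and 1.62-fold, but the Cyc pool of experiment 1 lay below the Wt pool of experiment 2. The log2 difference of 0.49 ± 0.45 did not exceed the spread between pools (limma, interval -0.68 to 1.66), also not with the block (0.49 ± 0.21, adjusted p = 0.717).

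Myh11, the smooth muscle myosin heavy chain and the most specific of these markers, read 317.3 in Cyc and 300.1 in Wt cells of experiment 1. In experiment 2 it was 1716 in Cyc and 732.1 in Wt cells. The genotypes were thus within 1.06-fold of each other in the first experiment and 2.34-fold apart in the second. The log2 difference was 0.64 ± 0.90 (limma, interval -1.73 to 3.02), and with the block 0.64 ± 0.31 (adjusted p = 0.733).

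Tpm2, the β-tropomyosin of the thin filament, showed the largest difference of the contractile genes in experiment 2. It had 1013 and 3095 in the Cyc and 813.9 and 1228 in the Wt pools, 1.25-fold and 2.52-fold apart. All 3 of its tested probe sets were higher in Cyc cells of both experiments, and the dimmest of them passed the thresholds with the block alone (log2 difference 1.03 ± 0.20, adjusted p = 0.648). At the brightest the log2 difference was 0.82 ± 0.60 (limma, interval -0.75 to 2.38), and with the block 0.82 ± 0.29 (interval 0.10 to 1.54, adjusted p = 0.699).

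Myl9, the regulatory myosin light chain, had 934.6 and 2685 in Cyc and 706.5 and 1520.4 in Wt pools, and Tagln, the actin-binding transgelin, 871.7 and 1943 in Cyc and 631.8 and 1117 in Wt pools. Both genes were higher in the Cyc pool of each experiment by less than 2-fold. Their log2 differences of 0.60 and 0.62 had intervals that held 0 without the block and began at 0.08 and 0.12 with it (limma, adjusted p = 0.698 and 0.674). Ppp1r14a, which encodes the myosin phosphatase inhibitor CPI-17, was dimmer at 121.1 and 208.7 in Cyc and 76.5 and 123.7 in Wt pools. The Cyc pool was 1.58-fold and 1.69-fold above the Wt pool, with a log2 interval from 0.15 to 1.10 in the fit with the block (adjusted p = 0.666).

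**Figure D2:**
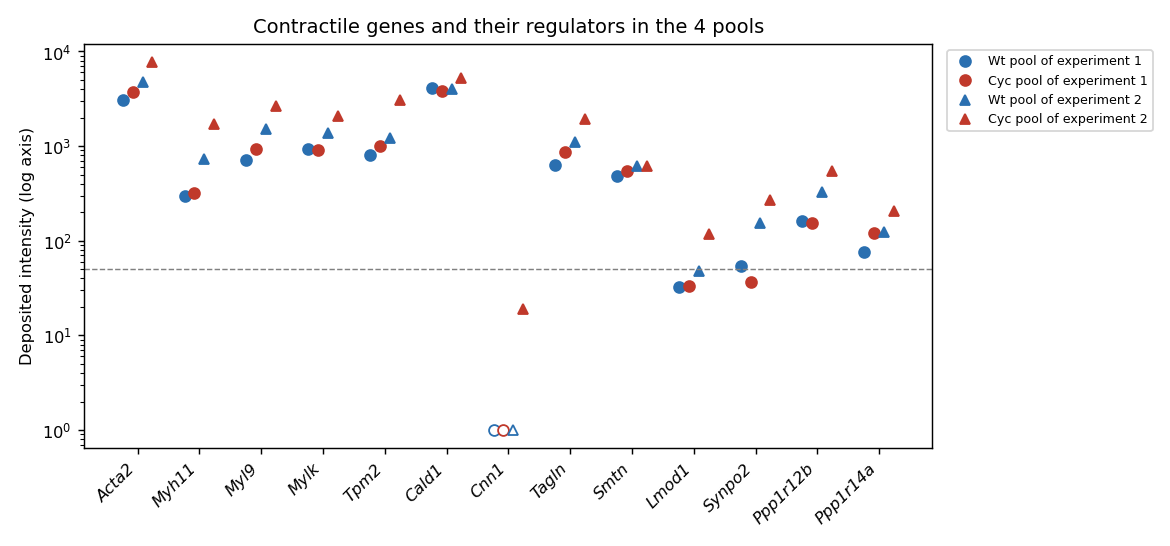
Deposited intensity (log axis) of the 13 contractile genes and regulators in each of the 4 pools, with symbols as for the pericyte genes and open symbols at 1 for values below 1. In 10 of the 11 tested genes both triangles of experiment 2 lie above both circles of experiment 1.

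Cald1 and Mylk did not share this pattern of a higher Cyc pool in each experiment. Caldesmon (Cald1) read 3824 and 5256 in Cyc and 4096 and 3995 in Wt pools, a log2 difference of 0.15 ± 0.27 (limma, interval -0.55 to 0.85), and all 4 of its tested probe sets were lower in the Cyc pool of experiment 1. Mylk, the myosin light chain kinase, had 912.0 and 2068 in Cyc and 936.9 and 1380 in Wt pools. Its second tested probe set had the opposite sign on average, at -0.17 against 0.27. Smoothelin (Smtn) stood between 487.5 and 619.4 in all pools, with a log2 difference of 0.08 and an interval from -0.58 to 0.74. Ppp1r12b, a targeting subunit of the myosin phosphatase, and Synpo2, an actin-bundling protein, were lower in Cyc cells of experiment 1 and higher in those of experiment 2.

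Calponin 1 (Cnn1) and leiomodin 1 (Lmod1), markers of the fully contractile state, were not tested. Cnn1 lay at 19.2 or less in all pools. Lmod1 passed 50 in the Cyc pool of experiment 2 alone, at 118.8, with 33.2, 32.8 and 47.4 in the others.

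The promoter of Myl9 holds a CArG box, as do those of Filip1l and Trpc6, 3 of 24 smooth muscle genes in the table, none of 6 pericyte genes and 1.81% of 27025 genes. Only the 250 bases before and 50 after the start were searched, so boxes elsewhere in a gene were not counted. Myl9 and Filip1l are shown as a pair of tested genes with this element of which the first was higher in Cyc cells of both experiments and the second was not. The box is in capitals, on the plus strand of GRCm38.p6.
Myl9, chr2:156775278-156775337: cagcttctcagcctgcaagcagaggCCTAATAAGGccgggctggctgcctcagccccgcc
Filip1l, chr16:57549155-57549214: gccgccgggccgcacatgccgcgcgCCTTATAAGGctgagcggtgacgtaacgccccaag
The box begins 161 bases before the start in Myl9 and 62 bases before it in Filip1l. The MCAT motif GGAATG, on either strand, was in 10 of the 24 smooth muscle and 2 of the 6 pericyte promoters, against 16.6% of all genes. Myh11, Tagln, Pde3a, Aoc3, Myocd, Foxs1, Higd1b and Ndufa4l2 had no entry in the table.

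The difference between the experiments was seen within each genotype. In experiment 2 the 11 contractile genes were brighter than in experiment 1 by a median of 1.17 in Cyc and 0.61 in Wt cells on the log2 scale, whereas over all tested genes this median was 0.30 and 0.17. For the 7 pericyte genes it was 0.46 and 0.12. With 1 pool of each genotype in an experiment, whether the Cyc minus Wt difference itself differs between the experiments cannot be tested.

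**Figure D3:**
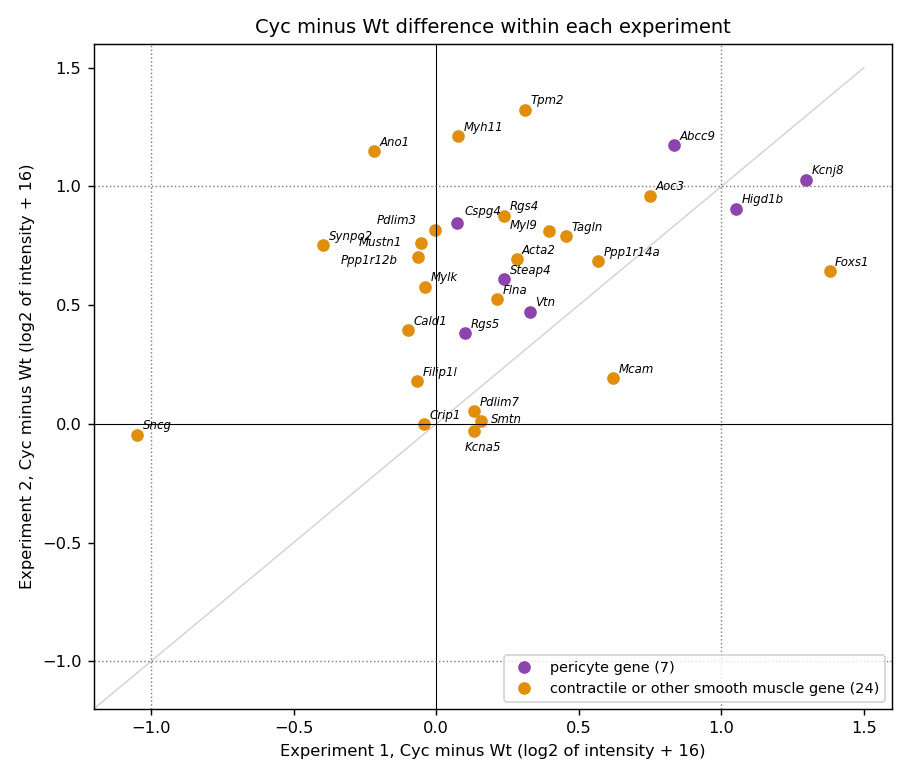
Cyc minus Wt difference, in log2 of the intensity with 16 added, of the 31 tested genes in experiment 1 (x axis) and experiment 2 (y axis), with pericyte genes in purple, smooth muscle genes in orange dotted lines at 2-fold and a diagonal of equal differences. All 7 pericyte genes are above 0 on both axes, and 10 of the 11 contractile genes lie above the diagonal, as do 64.2% of all tested genes. Foxs1 is drawn at its fitted values, although both of its Wt pools were near background.

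Over all 24 tested smooth muscle genes 1 passed the thresholds as higher, Foxs1, and none as lower, against 0.921% and 0.126% of all genes. As both Wt pools of Foxs1 were below 50, its call rests on values near background. In both experiments 13 of the 24 were higher and 2 (Crip1 and Sncg) lower, against 30.8% and 25.5% of all genes. Both Cyc pools were above both Wt pools in 4 (Flna, Mcam, Aoc3 and Foxs1), which is 16.7% of the 24 and near the 18.5% of all genes. In experiment 1 Foxs1 was 2-fold or more higher and Sncg lower, against 1.11% and 1.47% of all genes. In experiment 2 Myh11, Tpm2 and Ano1 were 2-fold or more higher and none lower, against 3.84% and 0.271%. Of the pericyte genes, Kcnj8 and Higd1b passed 2-fold in experiment 1 and Abcc9 and Kcnj8 in experiment 2, so Kcnj8 did so in both. The median log2 difference of the 24 genes was 0.39, with 0.13 in experiment 1 and 0.69 in experiment 2, and it turned to -0.052 without the Cyc pool of experiment 2 and was 0.92 without that of experiment 1.

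Foxs1, a forkhead transcription factor of perivascular cells, had 106.8 and 83.9 in the Cyc and 31.2 and 48.0 in the Wt pools. Both Wt pools were near background, so the gene passed the filter through its Cyc pools alone and the difference is given as at least 1.89-fold higher in Cyc cells (limma, adjusted p = 1). That bound is below the 2-fold that its fitted value reached. Myocardin (Myocd), the coactivator of contractile genes, passed 50 in the Cyc pool of experiment 2 alone, at 71.8, and was not tested.

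Of the channels and signaling genes, 3 of 6 were tested and none was called higher or lower, against 0.921% and 0.126% of all genes. Kcna5, the voltage-gated potassium channel Kv1.5, was bright and differed little, with 4061 and 2712 in Cyc and 3702 and 2768 in Wt pools. Ano1, the calcium-activated chloride channel of smooth muscle, had 230.1 and 853.0 in Cyc and 270.1 and 376.2 in Wt pools, and Rgs4, the neighbour of Rgs5 on chromosome 1, 356.1 and 914.5 in Cyc and 299.7 and 490.5 in Wt pools. Ano1 was thus lower in Cyc cells of experiment 1 and 2.27-fold higher in experiment 2, while Rgs4 was higher in both. Kcnmb1, Trpc6 and Pde3a, a potassium channel subunit, a cation channel and a phosphodiesterase, stayed under 50 in every pool and at every probe set, the highest being a second one of Kcnmb1 at 47.4 in the Cyc pool of experiment 2.

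The 9 scaffold and surface genes were all tested and none was called higher or lower, against 0.921% and 0.126% of all genes. Crip1, a LIM domain protein, was the brightest, at 9732 and 9489 in Cyc and 10029 and 9506 in Wt pools, a log2 difference of -0.02 with an interval from -0.60 to 0.56. Filip1l, a partner of filamin A, had 1738 and 2565 in Cyc and 1820.3 and 2264 in Wt pools, also without a difference beyond the spread (limma, interval -0.74 to 0.85). Filamin A itself (Flna) had 1322 and 1842 in Cyc and 1138 and 1276 in Wt pools, and the adhesion molecule Mcam (CD146) 1613 and 1740.2 against 1044 and 1522. In both the Cyc pools were above the Wt pools, by 0.37 ± 0.27 and 0.41 ± 0.28 on the log2 scale, and both intervals held 0 (limma).

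Aoc3, the vascular adhesion protein and amine oxidase, was the scaffold or surface gene nearest to the thresholds. It had 871.7 and 1643 in Cyc and 511.8 and 836.5 in Wt pools, 1.70-fold and 1.96-fold apart. The log2 difference was 0.86 ± 0.43 (limma, interval -0.28 to 1.99), and with the block 0.86 ± 0.19 (adjusted p = 0.655). Sncg, γ-synuclein, was lower in Cyc cells of both experiments, as was Crip1, with 394.6 and 980.3 in Cyc and 832.7 and 1012 in Wt pools. Its lowest value was that of the Cyc pool of experiment 1, and the log2 difference of -0.55 ± 0.48 had an interval that held 0 (limma, -1.81 to 0.72). Pdlim3, Pdlim7 and Mustn1 had log2 differences from 0.09 to 0.41, with groups that overlapped. Aoc3 and Pdlim3 are in the study's list of changed genes.

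**Figure D4:**
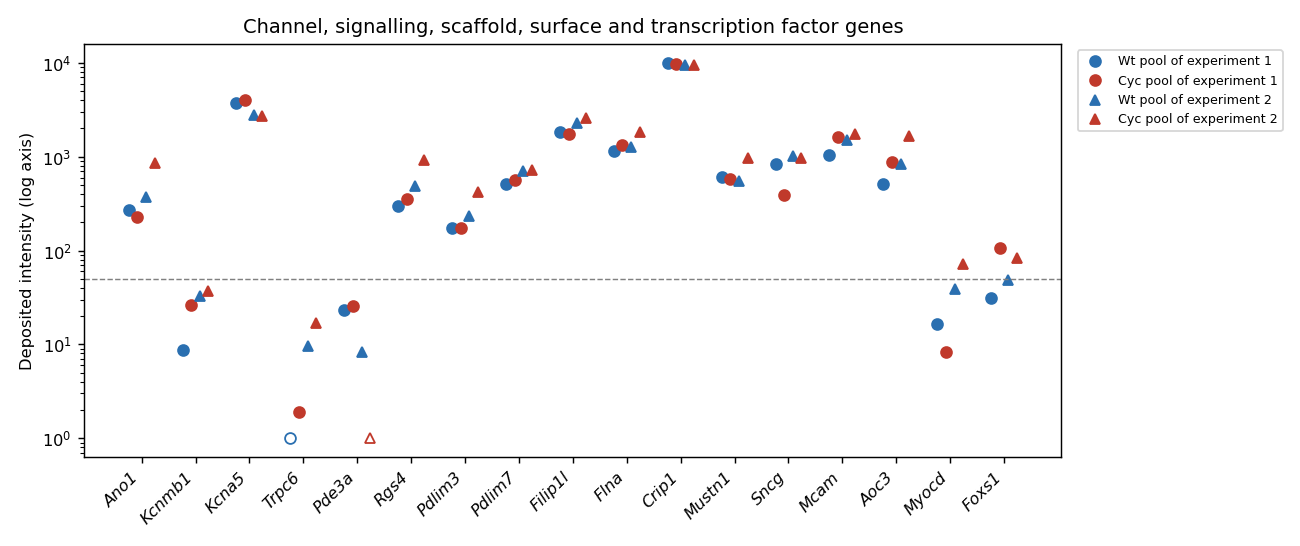
Deposited intensity (log axis) of the 17 channel, signaling, scaffold, surface and transcription factor genes in each of the 4 pools, with symbols as for the pericyte genes. Foxs1, Flna, Mcam and Aoc3 have both red symbols above both blue ones, and Sncg has its lowest value in the Cyc pool of experiment 1.

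With the experiment as a block Abcc9 and Kcnj8 were called again at their brightest probe sets, and Foxs1 passed too with its Wt pools below 50, against 1.14% of all genes called higher and 0.175% called lower. At an unadjusted p under 0.05 and any fold, 9 of the 31 genes were higher with the block (Kcnj8, Higd1b, Abcc9, Aoc3, Foxs1, Ppp1r14a, Tagln, Myl9 and Tpm2), against 4.68% of all genes. Without the block 4 of the 31 genes passed, where 412 of all 20680 tested probe sets did so in either direction.

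Summed markers of airway, mesothelium and macrophages were highest in the Cyc pool of experiment 2, in which the tested contractile genes were brightest too. These sums were second highest in the Wt pool of experiment 1. In that pool Acta2, Myh11, Myl9, Tpm2, Tagln, Smtn and Ppp1r14a were dimmest, whereas Mylk, Cald1, Synpo2 and Ppp1r12b were dimmest in the Cyc pool of experiment 1. The summed intensity of 10 airway and alveolar epithelium markers was 942.3 and 24021 in the Cyc and 4309 and 561.8 in the Wt pools, with 9 of the 10 at 50 or more in the Cyc pool of experiment 2 and 3 to 7 in the others (Sftpa1 was under 50 in all). The 6 mesothelial markers summed to 611.3 and 2262 in Cyc and 1245 and 682.0 in Wt pools, with all 6 at 50 or more in the Cyc pool of experiment 2 and the Wt pool of experiment 1 and 2 and 1 of them in the other Cyc and Wt pool. The 9 macrophage markers summed to 475.1 and 1287 in Cyc and 493.1 and 244.2 in Wt pools, with C1qc and Fcgr1 under 50 throughout. The part of these cells in the contractile values was not tested.

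The 10 endothelial markers summed to between 62745 and 66260 in the 4 pools, and the 10 fibroblast markers to between 54180 and 58791 in all but the Wt pool of experiment 2, at 38779. All of these were at 50 or more in every pool. The 10 cardiomyocyte markers summed to 2175 and 1957 in Cyc and 3714 and 2390 in Wt cells, with Ryr2 and Actn2 under 50. The 9 lymphocyte markers summed to 302.8 and 658.9 in Cyc and 183.9 and 256.9 in Wt pools, and the 4 Schwann cell markers to 136.1 or less. The gene of Sca-1 was not analysed here.

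**Figure D5:**
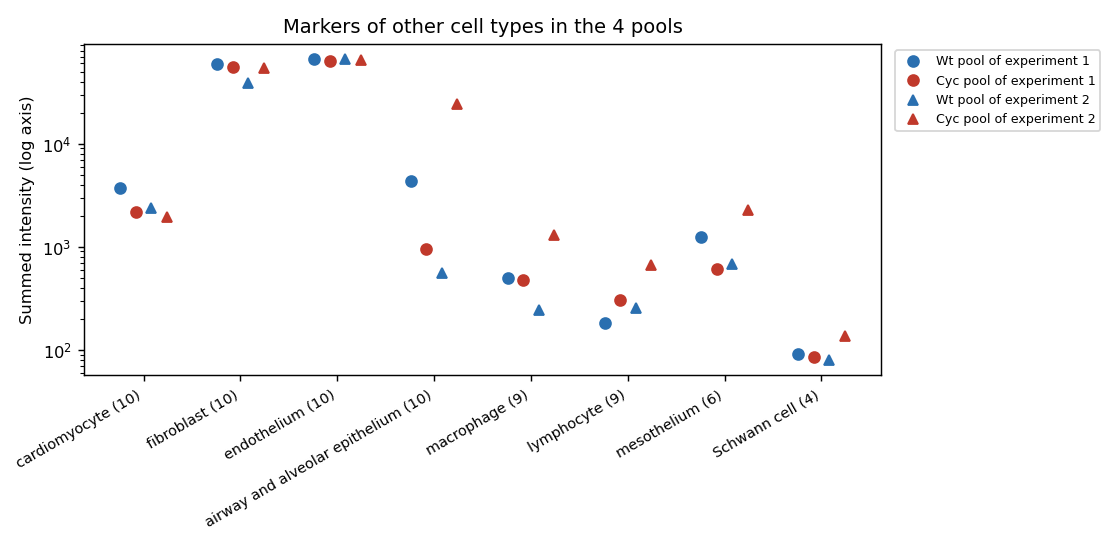
Summed intensity (log axis) of marker lists of 8 other cell types, with the number of markers in parentheses, in each of the 4 pools with symbols as for the pericyte genes. The airway, macrophage, lymphocyte and mesothelium sums are highest in the Cyc pool of experiment 2, and the endothelium sums are nearly level.

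The partners of the contractile and pericyte genes were read from lists that hold none of the 38. Of 27 genes of serum response factor signaling and contractility, 26 were tested. None was called higher or lower, against 0.921% and 0.126% of all genes, and the median log2 difference was 0.01. The brightest of them, caveolin 1 (Cav1), RhoA (Rhoa), the phosphatase subunit Ppp1cb and vinculin (Vcl), had log2 differences of -0.07, 0.00, -0.18 and -0.03. Srf itself was at 457.9 and 466.8 in Cyc and 463.8 and 607.5 in Wt pools. Csrp2, a LIM protein of smooth muscle that was chosen after its values were seen, had 1059 and 1559 in Cyc and 730.5 and 690.5 in Wt pools, 0.84 ± 0.29 apart on the log2 scale (limma), which is short of 2-fold.

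Of 23 genes of pericyte recruitment and mural signaling 21 were tested, with a median log2 difference of 0.19. Again none was called higher or lower, against 0.921% and 0.126% of all genes. In 3 of the 21 (Gja4, Art3 and Gja1) both Cyc pools were above both Wt pools and in 1 (Pdgfb) both below, against 18.5% and 7.48% of all genes. In both experiments 10 were higher and 5 lower, against 30.8% and 25.5%. Connexin 43 (Gja1), the angiopoietin receptor Tek, and the TGF-β receptors Tgfbr2 and endoglin (Eng), the brightest, had log2 differences of 0.31, -0.15, 0.00 and -0.30. The ligand Pdgfb, by which the endothelium recruits pericytes, was lower in both Cyc pools at 1397 and 1664 than in the Wt pools at 1786 and 2829, a difference of -0.55 ± 0.32 (limma, adjusted p = 1). Its receptor Pdgfrb on mural cells went the other way, with 1202 and 2944 in Cyc and 785.0 and 1204 in Wt pools (0.94 ± 0.51, adjusted p = 1, and 0.663 with the block). Notch3, the Notch receptor of mural cells, had 421.7 and 1322 in Cyc and 347.3 and 553.6 in Wt pools (0.75 ± 0.61, adjusted p = 1). Pdgfrb and Notch3 were higher in the Cyc pool of each experiment, but like the contractile genes their groups overlapped. Pdgfb, Pdgfrb, Notch3 and Srf were chosen after their values were seen, and Pdgfrb and Notch3 are in the study's list.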

How the data were processed

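The deposited file holds, for each of the 4 arrays, a probe set intensity on a linear scale that the authors normalized in Rosetta Resolver, and the background correction and summary method are not given in the sources used here. Values below 0 were set to 0, 16 was added and log2 taken. Of 45037 probe sets (34945 with 1 symbol, 932 with several and 9160 with none in the platform annotation), 20680 with 50 or more on at least 2 arrays were tested, Cyc minus Wt, with limma 3.58.1 in R 4.3.3. Tests were two-sided, with 2 residual degrees of freedom without the block and fewer with it, and were adjusted by Benjamini and Hochberg. The procedure was tested on simulated data. Tables and figures were made with Python 3.11.15, pandas 2.3.3 and matplotlib 3.10.9.

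Same-numbered arrays deviated together from their group means (correlation 0.447), and the extraction protocol in the labels names independent experiments without tying the numbers to them, so the replicate number was also fitted as a block. Where both arrays of a group were under 50, the fold is the geometric mean of the other group over 50.

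The genes and lists were chosen with earlier results of these data known. Pool values are given for genes past the thresholds, for those 2-fold apart without overlap, for the 4 brightest of each role, and for further members where a comparison needs them. Alternatives were pseudocounts of 1 and 50, no filter, a minimum of 100, the block, quantile normalization, median scaling, an intensity trend, the mean over probe sets and leaving out each array. The number of arrays limits the precision, and the tests reach no further than these pools. Beside a gene's own spread, the SE of limma draws on a spread shared over all tested probe sets. It does so more with the block, which leaves fewer residual degrees of freedom, and SEs there lay near 0.19 (such as 0.189 in Crip1 and 0.194 in Aoc3). An interval with the block is thus not a measure of a gene's own spread alone.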

Additional observations from a re-analysis of the deposited data

How the results depend on the processing

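Abcc9 was called in 9 of 13 alternatives, Kcnj8 in 7, Foxs1 in 9 of the 12 in which it was tested and Higd1b in 5, and each was higher in Cyc cells in all of them. The same 3 genes were called with the replicate block (2 pericyte genes and 1 smooth muscle gene), with an intensity trend and with the mean over probe sets. A pseudocount of 50 left 0 pericyte and 0 smooth muscle genes called higher and 61 of all genes (95 in the chosen setting), and a pseudocount of 1 called 23 of all genes lower (13 in the chosen setting). Without a filter 1 pericyte gene was called, Abcc9, and with a filter at 100 there were 0 smooth muscle genes, as Foxs1 was not tested. Foxs1 is counted here although its Wt pools were below 50. Leaving out each array gave 0 to 10 smooth muscle genes higher, 0 to 1 lower and 1 to 2 pericyte genes higher. Without the Cyc pool of experiment 1 the 10 were Myh11, Myl9, Tpm2, Tagln, Synpo2, Ppp1r12b, Ano1, Rgs4, Pdlim3 and Aoc3, without that of experiment 2 Sncg was called lower, without the Wt pool of experiment 1 Kcnj8 alone was called, and without that of experiment 2 Foxs1 and Higd1b. The median log2 difference of smooth muscle genes ran from -0.052 without the Cyc pool of experiment 2 to 0.92 without that of experiment 1, and that of pericyte genes from 0.39 (pseudocount of 50) to 0.72 (no filter) over all alternatives, with 0.46 in the chosen setting. With each array left out in turn, 72 to 347 of all genes were called higher and 12 to 258 lower. The smallest adjusted p of a member was 0.588 at the brightest probe sets and 0.365 at any, both with the block. What sets the Cyc pool of experiment 2 apart was not tested. With 2 pools per genotype, values under 50 on an array are too near background to carry a fold.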
